A study of Mus musculus with 14 samples.

Results

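The leukocyte miRNAs mmu-miR-142a-3p, mmu-miR-142a-5p and mmu-miR-150-5p (below without the mouse prefix) were followed through a small RNA sequencing series of mouse macrophages. They were taken by name from the table of counts per mature miRNA, so they are 3 of its 1250 lines. The series holds 14 libraries with bone marrow as their source: 4 of exosomes from IL4-stimulated macrophages, 4 of exosomes from control macrophages, and 3 cell lysates of each kind. The control libraries are labelled wild type, and the titles of the stimulated ones name IL4, the type 2 cytokine used to obtain alternatively activated macrophages. The sources used here do not give strain, age, IL4 dose, time of exposure or whether animals were pooled. Exosomes are small vesicles that cells release, and here they came from the culture medium after separation by density.

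A miRNA is cut from a hairpin precursor, either of whose arms (5p and 3p) can be loaded into an Argonaute protein and then represses messenger RNAs that pair with its seed. The miR-142 gene is active in nearly all blood cell lineages, macrophages included, and its arms are among the usual leukocyte miRNAs. The miRNA miR-150-5p is abundant in mature B, T and NK cells, where it restrains the transcription factor Myb, and it also circulates in serum. The pair therefore sets a miRNA that macrophages make themselves against one best known from lymphocytes.

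The mature sequences below identify the miR-142 arms, whose relative counts are compared further on, with bases 2 to 8 (the seed) in capitals. They come from RefSeq (GRCm38.p6), in which 2 of the 3 lines were matched, together with the antisense miRNA miR-142b and the minor arm miR-150-3p.
miR-142a-5p: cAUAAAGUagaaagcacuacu
miR-142a-3p: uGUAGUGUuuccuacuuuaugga
miR-142b: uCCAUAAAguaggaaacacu
miR-150-3p: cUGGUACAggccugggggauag
Each of these 4 seeds was shared with 0 other mature miRNAs of the RefSeq table. Both miR-142a arms lie on the hairpin of Mir142, here with the arms in capitals.
Mir142 hairpin: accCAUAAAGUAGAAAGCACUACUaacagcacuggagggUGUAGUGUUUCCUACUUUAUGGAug
In GRCm38 this hairpin of 64 bases spans chr11:87756864-87756927 on the plus strand. It lies within the long noncoding RNA gene Mir142hg (87755577 to 87757270), outside the annotated exons of that gene. The 5p arm covers 87756867 to 87756887 and the 3p arm 87756903 to 87756925. The gene Mir142b lies over it on the minus strand, and all 20 bases of miR-142b are antisense to miR-142a-3p, so the count of either rests on strand, and how counting treated strand was not stated. Mir150 is a separate gene of 65 bases at chr7:45121757-45121821, plus strand, which overlaps no other annotated gene. Its minor arm covers 45121798 to 45121819.

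Depth differed widely between compartments, from 28417 to 411671 total counts in exosomes and from 3941480 to 6792079 in lysates. In the smallest exosome library 1 read was worth 35.2 CPM (counts relative to a library's total), against at most 0.25 CPM in a lysate. Myeloid marker miRNAs, led by miR-223-3p, took 0.658% to 2.49% of counts in the lysates and 1.02% to 2.89% in exosomes, with miR-147-3p at 0 in control exosomes. Whether replicates are separate animals or separate cultures is not labelled, and the spread that the p-values rest on may therefore be technical.

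The 3p arm of miR-142a stood at a like share of reads everywhere. It had 5947, 4560, 3191 and 6507 CPM in control exosome replicates 1 to 4 and 3378, 4716, 4610 and 4171 CPM in IL4 exosomes. The lysate levels were 5704, 5227 and 4804 CPM in controls and 5664, 3537 and 4146 CPM with IL4. All 4 groups overlapped, and the group means ran from 5245 ± 451 CPM (SD, n = 3) in control lysates through 5051 ± 1486 (n = 4) in control exosomes and 4449 ± 1095 (n = 3) in IL4 lysates to 4219 ± 608 (n = 4) in IL4 exosomes, with no neighbours in that order further apart than their spread. By count it ranked between 26 and 52 in every library.

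The 5p arm of the same hairpin was higher in every exosome library than in any lysate, on the CPM scale. On that scale the median of all lines was also higher in exosomes, as given below. How many other lines part in this way was not counted. Control exosome replicates 1 to 4 had 3026, 5903, 5396 and 3691 CPM, and IL4 exosomes 2838, 4059, 3245 and 3545 CPM. In lysates it had 1973, 2817 and 2369 CPM in controls and 1797, 1885 and 1679 CPM with IL4. The lowest exosome value lay just above the highest lysate value, so the compartments did not overlap but nearly met. Group means were 4504 ± 1366 CPM in control exosomes, 3422 ± 514 in IL4 exosomes (n = 4 each), 2387 ± 422 in control lysates and 1787 ± 103.3 in IL4 lysates (n = 3 each). The 2 exosome groups overlapped, and their means differed by less than the control spread, while each control lysate lay above each IL4 lysate. The share of lines that part like this between the lysate groups was not counted, and the test below made no call.

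The lymphocyte-rich miR-150-5p was a minor line in the lysates and far higher in the exosomes. It had 9.39, 19.6 and 28.1 CPM in control lysates and 10.3, 20.04 and 15.96 CPM with IL4, from 54 to 155 counts a library. In exosomes it had 1865, 1692, 1663 and 656 CPM in control replicates 1 to 4, and 760, 1045, 1370 and 639 CPM with IL4. Every exosome library lay far above every lysate, while within each compartment the IL4 and control libraries overlapped. As for the 5p arm, the share of all lines that part between compartments was not counted. Its rank by count was 66 to 96 in exosomes, apart from a lower rank in control replicate 4, and 216 to 297 in lysates. Group means were 1469 ± 549 and 953 ± 326 CPM (n = 4 each) in control and IL4 exosomes, and 19.03 ± 9.38 and 15.4 ± 4.92 CPM (n = 3 each) in control and IL4 lysates. Its lowest exosome count was 24, in control replicate 4, for which counting error alone allows 420 to 976 CPM (95% exact Poisson interval).

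**Figure D1:**
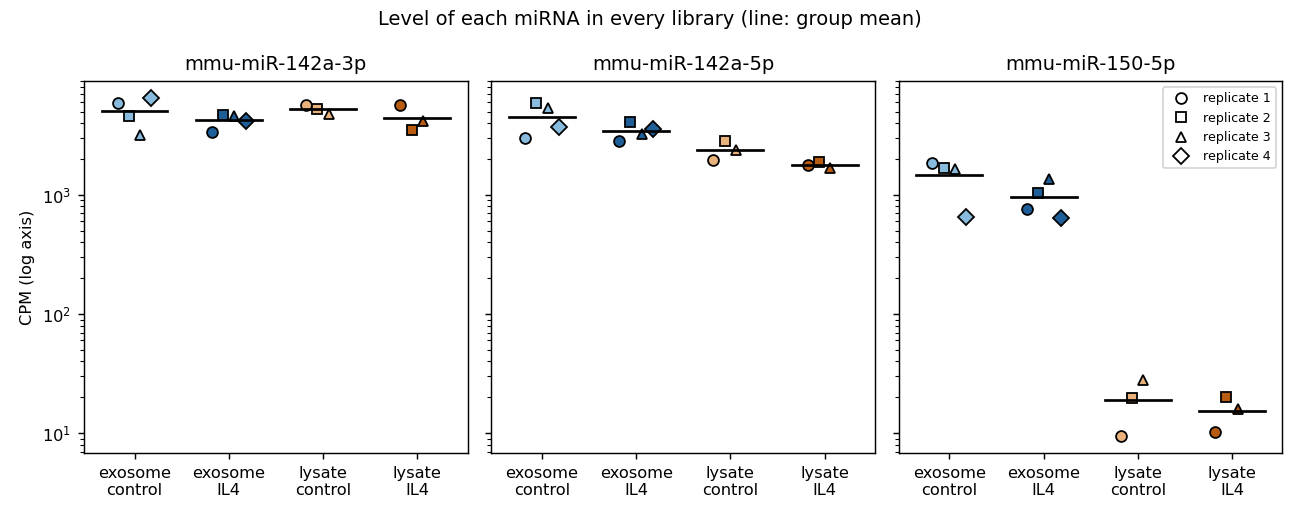
CPM on a log axis for the 3 miRNAs, with 1 point per library, marker shapes for replicates and a line at each group mean. The miR-142a-3p groups overlap, the miR-142a-5p exosome points lie above its lysate points, and miR-150-5p drops from 639 to 1865 CPM in exosomes to 9.39 to 28.1 CPM in lysates.

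The minor lines of these genes stayed low. The antisense line miR-142b had 27 counts over all exosomes and 1217 over all lysates. That is 0.666% of the summed counts of miR-142b and miR-142a-3p in exosomes (exact binomial 95% interval 0.439% to 0.967%) and 0.740% in lysates (0.699% to 0.783%). The intervals, which cover counting error only, overlap. The minor arm miR-150-3p had 7 counts over the 8 exosome libraries, 5 of which had 0, and 3 to 8 counts in each of the 6 lysates. It made up 0.566% of the counts of both miR-150 arms in exosomes (0.228% to 1.16%) and 5.54% in lysates (3.84% to 7.69%), a difference described here without a test, since most exosome libraries had no read of it.

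The question of what exosomes carry relative to the cells was put by comparing exosomes with lysates in controls and with IL4, in 1 fit of all 14 libraries. Exosomes and lysates share no title date and their depths do not overlap. A difference between compartments therefore cannot be told apart from one of date or depth. After TMM scaling, which sets the bulk of miRNAs level between libraries, miR-150-5p was 42.3-fold higher in control exosomes than in control lysates (log2 fold change 5.40, SE 0.59, 95% confidence interval 4.14 to 6.66). With IL4 it was 36.6-fold higher (5.20, SE 0.58, 3.95 to 6.44). Both were called by edgeR's quasi-likelihood test (adjusted p = 7.01e-06 and 1.02e-05), and every one of the 21 alternatives tried in each comparison kept the call. As a ratio of mean CPM the difference was 77.2-fold in controls and 61.8-fold with IL4. In the same fit 29.3% of the 338 miRNAs tested were called higher in control exosomes and 21.6% lower (50.9% in all), against 30.2% higher and 18.9% lower with IL4 (49.1% in all). By log2 fold change miR-150-5p ranked 71 of 338 from the top in controls and 62 with IL4, so its rise was one among many of this size in the tested set. The filter on low counts kept lines by their CPM in a few libraries of any group. At no more than 28.1 CPM in lysates, miR-150-5p passed it through exosome libraries, as did other lines scarce in lysates. The shares and ranks given here and below rest in part on such lines. Without that filter the call of miR-150-5p stayed.

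The arms of miR-142a behaved otherwise. The 3p arm was 1.76-fold lower in control exosomes after TMM scaling (log2 fold change -0.82, SE 0.26, adjusted p = 0.0162) and 1.67-fold lower with IL4 (-0.74, SE 0.26, adjusted p = 0.0273). The 5p arm had 0.07 (SE 0.26, -0.49 to 0.63, adjusted p = 0.828) in controls and 0.24 (SE 0.26, -0.32 to 0.80, adjusted p = 0.472) with IL4 and was not called. These values turn on the scaling. With library size alone the 3p arm had -0.06 and -0.08 (adjusted p = 0.915 and 0.844), whereas the 5p arm had 0.92 and 0.94 and was called higher in both (adjusted p = 0.0107 and 0.00984). DESeq2 gave -0.42 and -0.47 for the 3p arm, not called (adjusted p = 0.213 and 0.153), and 0.50 and 0.53 for the 5p arm, called (adjusted p = 0.0424 and 0.0280). RLE factors gave -0.41 and -0.47, with the 3p call lost (adjusted p = 0.232 and 0.166). The median of all miRNAs tested was -0.18 in controls and -0.01 with IL4 under TMM, 0.63 and 0.68 with library size, 0.22 and 0.29 with RLE factors, and 0.23 and 0.28 with DESeq2. The split of calls moved with it, from 99 higher and 73 lower to 126 and 16 in controls, and from 166 calls with 64 lower to 127 higher and 12 lower with IL4, under library size. It was 109 and 47, and 111 and 50, with RLE factors, and 122 and 52, and 120 and 57, with DESeq2.

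The TMM call of the 3p arm also rested on single libraries. In controls it ended without control exosome replicate 1 (-0.67, adjusted p = 0.0591) or 3 (-0.39, 0.172), control lysate replicate 2 (-0.73, 0.0665) or IL4 exosome replicate 3 (-0.65, 0.0602). With IL4 it ended without any 1 of IL4 lysate replicates 1 to 3 (-0.51, -0.68 and -0.58, adjusted p = 0.172, 0.0753 and 0.137) or of IL4 exosome replicates 1 to 4 (-0.63, -0.64, -0.65 and -0.54, adjusted p = 0.0675, 0.0691, 0.0861 and 0.150). It ended there too without control exosome replicate 1 (-0.61, 0.0533) or control lysate replicate 3 (-0.59, 0.0776). Under edgeR without a filter on low counts the 3p arm had -1.35 and -0.99 and stayed called. The 3p arm was thus below 0 in each of the fits tried, with a size and a call that depended on them, and the level of either arm between compartments was not fixed by these data.

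**Figure D2:**
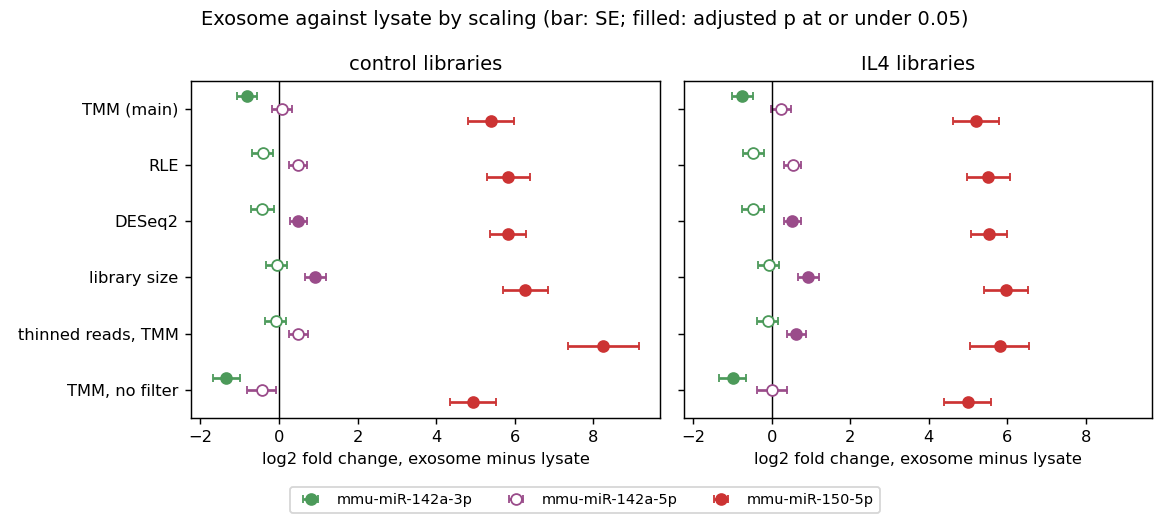
Log2 fold change of exosome minus lysate with its SE, for control and IL4 libraries, under 6 ways of scaling or filtering; filled points passed an adjusted p of 0.05. The miR-150-5p points are filled throughout, while miR-142a-3p is filled under TMM on the deposited counts, with and without a filter, and miR-142a-5p under library size, DESeq2 and, with IL4, thinned counts. The thinned miR-150-5p points rest on lysates at 0 or 1 count and give no size.

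A ratio of 2 lines within a library needs no scaling, and mature miRNAs are read end to end, so no length correction enters it. The 3p arm of miR-142a outnumbered the 5p arm in every lysate. The ratio of 3p to 5p counts was 2.89, 1.86 and 2.03 in control lysates and 3.15, 1.88 and 2.47 in IL4 lysates. In IL4 exosomes it was 1.19, 1.16, 1.42 and 1.18, below every lysate, though the share of hairpins that part in this way was not counted. Control exosomes were spread out, with 1.96 and 1.76 in replicates 1 and 4 and 0.77 and 0.59 in replicates 2 and 3. The spread was wider than counting error, since the 3p share of both arms was 66.3% in replicate 1 (exact binomial 95% interval 60.1% to 72.1%) and 37.2% in replicate 3 (34.9% to 39.5%).

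On the log2 scale the arm ratio differed by -0.98 (SE 0.47) between control exosomes and lysates and by -0.99 (SE 0.23) with IL4. By an exact permutation test, two-sided, p was 0.114 in controls, where the groups overlapped, and 0.0571 with IL4, where they did not. With 4 against 3 libraries 0.0571 is the smallest p this test allows, and the values adjusted over 8 ratio tests were 0.229 and 0.152. Among the 74 hairpins with both arms tested, the same difference had a median of 0.03 in controls and 0.14 with IL4, and a median size of 0.79 and 0.81. The arm shift of miR-142a ranked 17 and 16 from the most negative, so shifts of this size were common between these compartments.

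**Figure D3:**
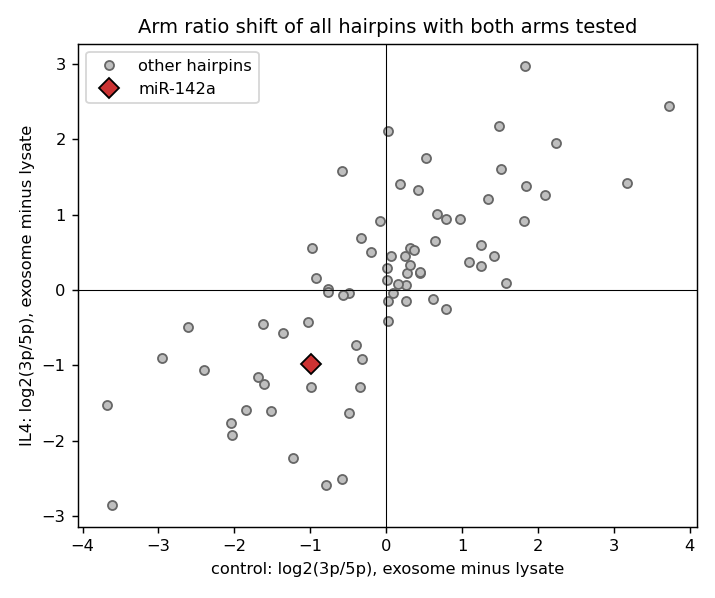
Difference of log2(3p/5p) between exosomes and lysates in control (horizontal) and IL4 libraries (vertical), 1 point per hairpin with both arms tested. The red diamond, miR-142a, lies at -0.98 and -0.99, inside the cloud of the other hairpins.

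The counts of miR-142a-3p for each count of miR-150-5p were far apart between compartments. Control lysates held 602, 266 and 170 counts of miR-142a-3p for each count of miR-150-5p, and IL4 lysates 548, 175 and 258. Control exosomes held 3.17, 2.69, 1.92 and 9.73, and IL4 exosomes 4.40, 4.49, 3.36 and 6.47. No exosome library came near a lysate, though other pairs of lines were not examined for such a gap. The log2 ratio differed by -6.41 (SE 0.74) between exosomes and lysates in controls and by -6.00 (SE 0.52) with IL4, that is 84.8-fold and 64.0-fold lower in exosomes, each with the smallest exact permutation p of 0.0571 (adjusted p = 0.152, two-sided).

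**Figure D4:**
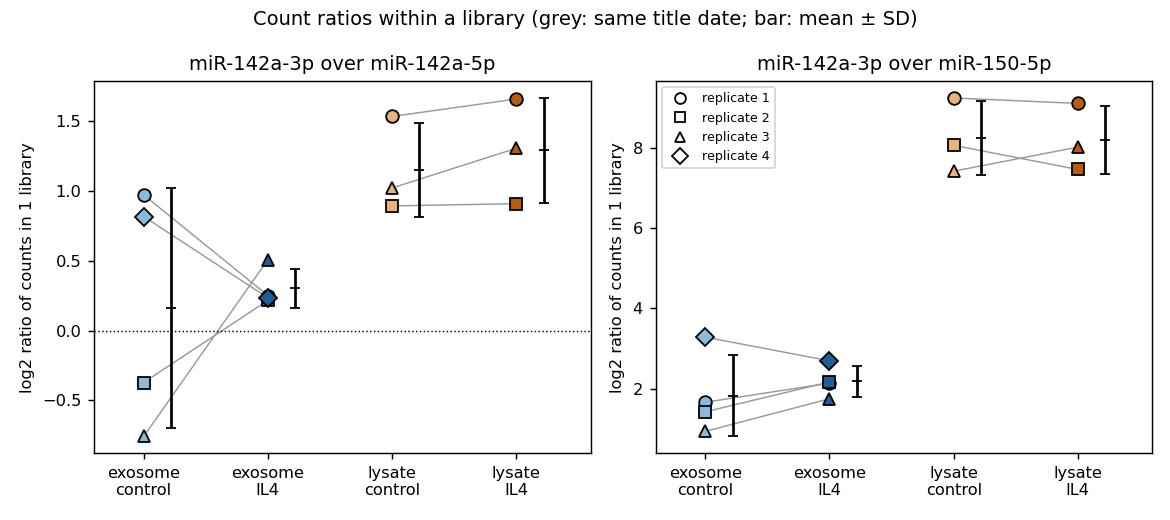
Log2 ratios of counts within each library, with grey lines joining libraries of 1 title date and bars for mean ± SD. At left the arm ratio of miR-142a lies at 0.89 to 1.66 in lysates and at 0.22 to 0.51 in IL4 exosomes; at right miR-142a-3p over miR-150-5p falls from 7.41 to 9.23 in lysates to 0.94 to 3.28 in exosomes.

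Marker miRNAs of several other cell types were also higher in exosomes, beside the 29.3% (controls) and 30.2% (IL4) of all lines called higher. Of the tested erythroid markers 4 of 4 were called higher in exosomes in both comparisons, as were 2 of 2 endothelial and 2 of 2 muscle markers. Stromal markers had 3 of 5 called higher and 1 lower in controls and 4 of 5 higher with IL4. Epithelial markers had 2 of 5 called higher in both, and serum, liver and gut markers 2 of 3 in controls and 1 of 3 with IL4, lists too short for these counts to be set apart from the share over all lines. Many of these lines were scarce in lysates, with group means there of at most 26.7 CPM. They were miR-451a, both arms of miR-144 and miR-126a, miR-1a-3p, miR-133a-3p, miR-203-3p and miR-205-5p. Such lines passed the filter on low counts through exosome libraries, so a higher call was largely fixed in advance and their counts carry little weight. Erythroid markers, led in exosomes by miR-451a, took 2.95% to 5.53% of control exosome counts against 0.0117% to 0.0211% in control lysates. Endothelial markers took 0.686% to 2.75% against 0.00274% to 0.00339%, and serum, liver and gut markers, led in exosomes by the hepatocyte miRNA miR-122-5p, 0.131% to 1.30% against 0.0186% to 0.0425%. With IL4 these shares were 2.18% to 3.05%, 0.410% to 1.59% and 0.185% to 0.825% in exosomes against 0.0120% to 0.0152%, 0.00134% to 0.00326% and 0.0152% to 0.0547% in lysates. Stromal markers took 0.356% to 0.985% of exosome and 0.247% to 0.450% of lysate counts. Epithelial markers took 0.0355% to 10.5% of exosome counts and 0.0143% to 0.0242% of lysate counts, with miR-205-5p at 0 in every lysate. Muscle markers took 0.0287% to 0.331% and 0.000145% to 0.00101%, with miR-206-3p at 0 in both control groups. Their part in the exosome level of miR-150-5p was not tested. The exosome shares describe RNA of vesicles and not numbers of cells. In the bulk RNA of the lysates, fewer cells of a type and less RNA per cell cannot be told apart.

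Of 4 tested lymphocyte markers, miR-150-5p was the 1 called higher in exosomes in each comparison. Over all lines 29.3% were called higher in controls and 30.2% with IL4, so 1 of 4 is near that share. The miRNA miR-181b-5p, active in lymphocyte development, was called lower in both (-1.003 and -1.17), and its relative miR-181a-5p was called lower with IL4 (-0.99, adjusted p = 0.00738). The whole list took 0.862% to 1.09% of counts in control exosomes and 0.507% to 0.612% in control lysates, and 0.638% to 1.17% and 0.681% to 1.05% with IL4.

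**Figure D5:**
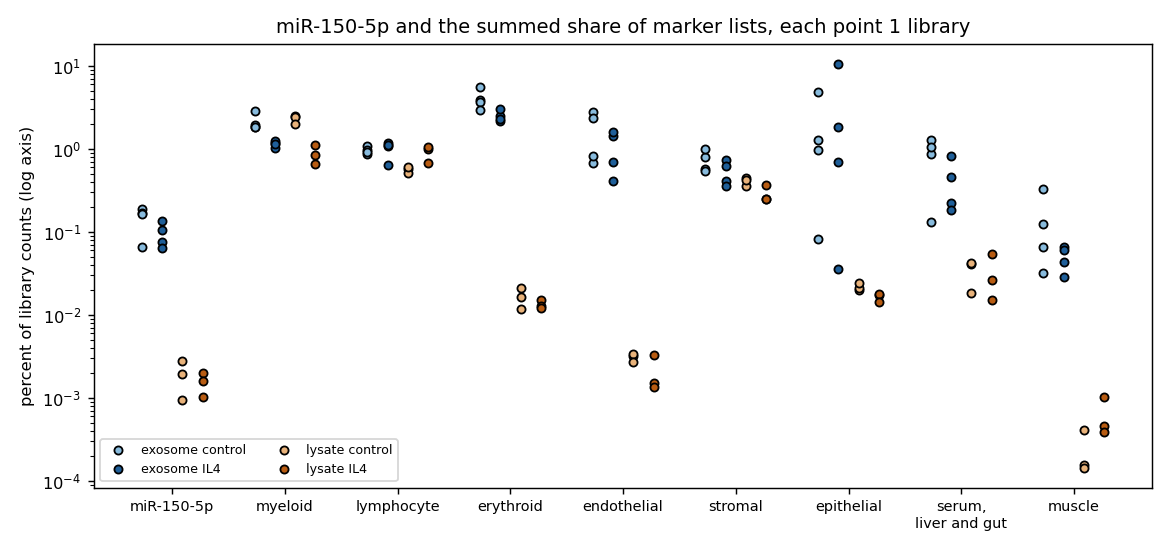
Percent of a library's counts (log axis) taken by miR-150-5p and by each marker list, 1 point per library. In exosomes miR-150-5p and the erythroid, endothelial, serum and muscle lists lie above their lysate points. The lymphocyte list holds miR-150-5p and the more abundant miR-342-3p. It lies higher in control exosomes (0.862% to 1.09%) than in control lysates (0.507% to 0.612%) and overlaps with IL4.

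Among 18 leukocyte miRNAs listed as context, 17 were tested. In controls miR-150-5p was the 1 called higher in exosomes and 7 were called lower, with a list median of -0.58 against -0.18 over all miRNAs tested. Of all miRNAs tested there, 29.3% were called higher and 21.6% lower. The 7 were miR-142a-3p, miR-181b-5p, miR-21a-5p, miR-221-3p, miR-222-3p and both arms of the myeloid miR-223 (-0.89 for miR-223-3p and -1.65 for miR-223-5p). With IL4 2 were higher and 8 lower, with a median of -0.44 against -0.01. Of all miRNAs tested there, 30.2% were called higher and 18.9% lower. The 8 were miR-142a-3p, miR-181a-5p, miR-181b-5p, miR-21a-5p, miR-24-3p, miR-146b-5p, miR-221-3p and miR-222-3p. Neither arm of miR-223 was called with IL4 (-0.22 for miR-223-3p and 0.04 for miR-223-5p). The second higher line was miR-155-5p (1.22, adjusted p = 0.0444), a driver of inflammatory activation. These counts share the scaling limit given for miR-142a-3p, and the control and IL4 comparisons come from 1 fit with a shared spread.

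IL4 left the 3 lines without a call in either compartment. In exosomes the log2 fold change of IL4 over control was -0.13 for miR-142a-3p (SE 0.28, 95% interval -0.76 to 0.49), -0.22 for miR-142a-5p (SE 0.21, -0.70 to 0.26) and -0.46 for miR-150-5p (SE 0.34, -1.23 to 0.31). Adjusted p was 0.891, 0.862 and 0.804 by edgeR, in a comparison that called 0.549% of 182 miRNAs. By date, the CPM of miR-150-5p was lower with IL4 at 4 of 4 exosome dates, at 0.407 to 0.973 of the control level, and that of miR-142a-5p at 4 of 4 (0.601 to 0.960), while miR-142a-3p was higher at 2 of 4. It was not counted what share of all lines was lower at 4 of 4. With the date as a block the adjusted p was 0.397 for miR-150-5p, 0.635 for miR-142a-5p and 0.942 for miR-142a-3p.

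In lysates the IL4 values were -0.05 for miR-142a-3p (SE 0.17, -0.45 to 0.35), -0.24 for miR-142a-5p (SE 0.22, -0.75 to 0.27) and -0.12 for miR-150-5p (SE 0.47, -1.21 to 0.96). The adjusted p-values by edgeR were 0.960, 0.760 and 0.973, where 7.22% of 443 miRNAs were called, 5.87% higher and 1.35% lower (32 in all, and 50 with the date as a block). The CPM of both miR-142a arms was lower with IL4 at 3 of 3 dates and that of miR-150-5p at 1 of 3. CPM is a share of a library's total, of which miR-21a-5p alone had a mean of 287365 CPM in control and 384594 CPM in IL4 lysates. The share of all lines lower at 3 of 3 dates was not counted. The intervals leave room for changes of up to about the width given, so a like level with and without IL4 was not shown. Around these lines IL4 did change other leukocyte miRNAs of the cells. Of 17 tested, 4 rose (miR-146b-5p, miR-125b-5p, miR-181a-5p and miR-181b-5p) and 3 fell (miR-146a-5p, miR-223-3p and miR-223-5p), with a list median of -0.01 against 0.00 over all miRNAs. In exosomes 1 of 17 rose, miR-146b-5p (1.65, adjusted p = 0.0296), and 0 fell. It was the 1 line called in that comparison, and the call was lost with library-size scaling and without control exosome replicate 2 or 3 or IL4 exosome replicate 3. In lysates the calls over all lines fell from 32 to 2 or 13 when control replicate 2 or 3 was dropped, and to 7 or 10 when IL4 replicate 2 or 3 was.

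The IL4 effect itself did not differ by a call between exosomes and lysates for any of the 3. The difference, exosome minus lysate, was 0.07 for miR-142a-3p (SE 0.37, -0.72 to 0.87), 0.17 for miR-142a-5p (SE 0.37, -0.62 to 0.96) and -0.21 for miR-150-5p (SE 0.67, -1.64 to 1.23), each with adjusted p = 0.9999 by edgeR. Over all 338 miRNAs edgeR and DESeq2 each made 0 calls on this difference (0% called), with 14 at an unadjusted p under 0.05 by edgeR. The arm ratio of miR-142a changed with IL4 by 0.14 in exosomes (SE 0.43, exact permutation p = 0.743) and by 0.14 in lysates (SE 0.29, exact permutation p = 0.6). With 3 against 3 libraries that test cannot go under 0.1. In lysates each of the 3 dates had the higher arm ratio in its IL4 library, and permuting treatment within dates gave an exact p of 0.25, the smallest possible. The ratio of miR-142a-3p to miR-150-5p changed by 0.36 in exosomes (SE 0.54, exact permutation p = 0.514) and by -0.05 in lysates (SE 0.72, exact permutation p = 0.8).

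The patterns of the 3 lines were set beside each other and beside all other lines. Over the 14 libraries Pearson's r of log2 CPM between 3p and 5p was -0.33, and -0.25 after each group mean was subtracted. The lines most like miR-142a-3p were miR-98-5p (r = 0.93), let-7f-5p (0.92) and let-7d-5p (0.91), and within groups miR-425-5p (0.84), miR-98-5p (0.82) and let-7f-5p (0.79). Those most like miR-142a-5p were miR-22-3p (0.85), miR-30a-5p (0.66) and miR-30a-3p (0.66), and within groups miR-16-5p (0.91), miR-24-3p (0.84) and miR-22-3p (0.83).

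For miR-150-5p the closest lines were miR-543-3p (r = 0.99), miR-10b-5p (0.99) and miR-382-5p (0.99), all of which ran from at most 16.9 CPM in a lysate to at least 52.1 CPM in an exosome library. Within groups they were miR-122-5p (0.90), miR-543-3p (0.89) and miR-382-3p (0.85). The level of miR-122-5p was 7675 ± 4779 CPM in control exosomes and 3795 ± 2864 with IL4, against 137 ± 111 and 105.8 ± 153 in lysates. The correlation of miR-150-5p with miR-142a-3p was -0.80, and -0.10 within groups. These are descriptions over 14 libraries that share dates and scaling factors, and the uncentred values mostly restate the gap between compartments. Replicate 4 of the control exosomes, low in miR-150-5p, was also the lowest in miR-122-5p, at 902 CPM. The IL4 exosome library of the same date, replicate 4, was likewise the lowest of its group in both, at 639 CPM of miR-150-5p and 1329 CPM of miR-122-5p.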

How the data were processed

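Per the labels' protocols, OptiPrep separated the exosomes and a NextFlex kit made the libraries. The submitters' processing notes name cutadapt and the build mm10; the aligner, counter, annotation and strand setting were not stated. The authors deposited raw counts per mature miRNA, without normalization, as 1 table of 1250 lines; 0 columns were left unused. The Poisson and binomial intervals cover counting error only, and amplified reads need not be separate molecules. Those of log2 fold changes include the spread between libraries.

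Columns were matched to samples by title, and title dates gave the replicate numbers. Dates are shared by IL4 and control libraries, never by exosomes and lysates. Deviations from group means correlated within dates (r = 0.19 to 0.72 in exosomes, 0.26 to 0.61 in lysates). Pairs of different dates overlapped with these (r = -0.68 to 0.26 in exosomes, -0.50 to 0.32 in lysates). Replicates of a group always differed by more than counting noise (chi-square over its degrees of freedom at least 21.0).

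Comparisons used edgeR 4.0.16 in R 4.3.3 (filterByExpr, TMM, glmQLFit, glmQLFTest, two-sided, Benjamini-Hochberg over all lines tested, threshold 0.05). IL4 was tested within each compartment, and exosomes against lysates in 1 fit of all libraries. The scripts were tested on simulated data. SE is the log2 fold change over the root of the F statistic. Ratios used counts plus 0.5 and exact permutation tests in scipy 1.17.1. Named lines were the 3 members, the minor lines of their genes, called lines of the context list and the 3 most correlated lines per member. Marker lines and the correlated values printed for 1 library were named as examples. The members and lists were chosen with earlier results of these data known. Alternatives were RLE and library-size scaling, DESeq2 1.42.0, no filter, omission of epithelial lines, thinning, a date block, other sample sets and leaving out each library.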

Additional observations from a re-analysis of the deposited data

Results flagged for a closer look

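In 10 groups of 4 exosome libraries checked for a library far from the rest, 2 were flagged; chance flags about 1 in 20 groups. The miR-150-5p level of control exosome replicate 4, at 656 CPM, lay far below the other 3 control exosomes, with 0.833 of the group's range between it and its nearest neighbour. That value rests on 24 counts. The IL4 exosome library of the same date was the lowest of its own group, at 639 CPM, though not flagged. The miR-142a arm ratio of IL4 exosome replicate 3, at 0.51 on the log2 scale, lay above the other 3 IL4 exosomes (gap over range 0.882); this is the deepest exosome library.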

How the results depend on the processing

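The rise of miR-150-5p in exosomes kept its direction and call in all 21 alternatives of each comparison (log2 fold change 4.94 to 8.26 in controls and 4.99 to 5.96 with IL4). The top value is from thinned counts with lysates at 0 or 1 count, and no size is read from it. The miR-142a-3p call in exosomes against lysates was lost in controls with RLE factors (-0.41), library size (-0.0581), DESeq2 (-0.42), thinning (-0.0882) and the 7 control libraries alone (-0.58), and with IL4 with RLE factors (-0.47), library size (-0.0756), DESeq2 (-0.47), thinning (-0.0995) and without epithelial lines (-0.57). Leaving out 1 library gave -1.05 to -0.39 in controls and -0.77 to -0.51 with IL4. The miR-142a-5p line became called with library size (0.92 and 0.94) and DESeq2 (0.50 and 0.53) in both, and with thinning with IL4 (0.63). It turned to -0.44 in controls without a filter and ran from -0.16 to 0.49 without 1 library. The cause of these changes beyond the scaling was not tested.

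IL4 effects of the 3 lines were called in no alternative. In exosomes miR-142a-3p turned to 0.0343 without a filter and 0.0014 without epithelial lines, and ran from -0.19 to 0.18 without 1 library; miR-142a-5p ran from -0.19 to 0.0344 and miR-150-5p from -0.58 to -0.13 (the latter without control replicate 1). In lysates miR-142a-3p ran from -0.16 to 0.0699, miR-142a-5p from -0.43 (without control replicate 1) to -0.0557 (without control replicate 2) and miR-150-5p from -0.50 to 0.26. The difference of IL4 effects for miR-142a-3p became -0.0594 with RLE factors, -0.0175 with library size, -0.0482 with DESeq2 and -0.0113 with thinning, and that of miR-150-5p 0.0504 without a filter and -2.45 with thinning, a size that rests on lysates at 0 or 1 count. Without 1 library these ran from -0.23 to 0.38 (miR-142a-3p), -0.11 to 0.39 (miR-142a-5p) and -0.46 to 0.23 (miR-150-5p). The IL4 change of the arm ratio ran from -0.17 to 0.41 in exosomes and -0.0419 to 0.33 in lysates, and that of miR-142a-3p over miR-150-5p from -0.50 to 0.45 in lysates and from 0.0633 (without control replicate 3) to 0.84 (without control replicate 4) in exosomes.

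Counts of calls moved too. IL4 in exosomes had 1, but 0 with library size, 6 with DESeq2, 12 without a filter, 0 when control replicate 2 or 3 or IL4 replicate 3 was dropped, and 2 when control replicate 4 or IL4 replicate 1 was. IL4 in lysates had 32, but 14 with library size, 4 in 1 fit of all libraries, 50 with the date as a block, and 2 to 34 on dropping 1 library (2 and 13 for control replicates 2 and 3, 7 and 10 for IL4 replicates 2 and 3). Exosomes against lysates fell from 172 to 54 and from 166 to 61 with thinning, where 153 lines were tested. The difference of IL4 effects rose from 0 to 3 without a filter. The date block changed no call of the 3 lines. Shallow exosome libraries limit miR-150-5p there to counts of 24 to 564.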
